A study of Mus musculus with 6 samples.

Results

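The clustered protocadherin genes are 59 of the 23420 rows of the deposited gene count table. They were taken by symbol, as every row named Pcdha, Pcdhb, Pcdhga, Pcdhgb or Pcdhgc with a number, plus Pcdhac1 and Pcdhac2. The set holds 12 variable alpha genes (Pcdha1 to Pcdha12), 2 alpha genes of the C type (Pcdhac1 and Pcdhac2), 22 beta genes, 12 gamma A genes, 7 gamma B genes, 3 gamma genes of the C type (Pcdhgc3, Pcdhgc4 and Pcdhgc5) and 1 further row, Pcdha4-g, which held no count. Apart from that row, 58 members matched the mouse annotation of the same build (mm10). All of these lie on chromosome 18, in separate alpha, beta and gamma clusters that follow each other. The splice junctions that join the variable exons of the alpha and gamma genes to their shared constant exons were taken from the junction list of each library.

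Clustered protocadherins are cell surface proteins that bind a copy of themselves on the opposing membrane. In the alpha and gamma clusters each large variable exon has its own promoter and codes for the outside of the protein, the membrane span and a short inner stretch, and it is spliced to constant exons that every member of the cluster shares. Beta genes have only the large exon. The choice of promoter sets which isoforms a neuron makes, and the C-type isoforms are known as the ones expressed most regularly from neuron to neuron. In Purkinje cells the gamma isoforms are known for keeping the branches of 1 dendrite apart.

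The libraries hold ribosome-bound RNA from cerebellar Purkinje neurons of C57BL/6 mice at 4 weeks of age, with 3 animals for each genotype and 1 cerebellum for each pull-down. Control animals were Pcp2-BacTrap; Rbm17 f/+, so that 1 Rbm17 allele was floxed and the other wild type. The conditional knockout (cKO) animals were Pcp2-BacTRAP; Pcp2-Cre; Rbm17 f/-, with a floxed and a null allele of Rbm17, which codes for a splicing factor. Both the tagged ribosomal protein, which all 6 libraries share, and Cre are driven from Pcp2, a Purkinje gene. Since Control animals had neither Cre nor a null allele, effects of Cre, of the null allele and of Rbm17 loss in Purkinje cells cannot be told apart.

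Libraries held between 140110897 and 160571518 gene counts in all, and the members took between 88272 and 105641 of them, or 0.0612% to 0.0731%. Levels are in CPM, counts scaled to the size of the library, on library sizes scaled by TMM, a scaling that sets the bulk of genes equal between libraries. Rbm17 itself was at 41.6 ± 0.73 CPM in Control and 25.9 ± 0.36 CPM in cKO (SD, n = 3 each). All 10 Purkinje markers checked were detected in all 6 libraries, with summed levels of 25842 to 35299 CPM in Control and 14962 to 17503 CPM in cKO. Of these markers 6 fell and 0 rose. Over all genes tested edgeR called 7.87% in either direction, to be set beside each count of markers called here. At an unadjusted p under 0.05 in edgeR, 10.6% of all genes were lower and 11.5% higher. Summed granule cell markers were at 3629 to 5074 CPM in Control and 3057 to 4953 CPM in cKO, with 0 of 7 called in edgeR and 1 lower at an unadjusted p under 0.05, so RNA with granule cell markers was present in the pull-downs. The 7 microglial markers rose in 5 cases, from a sum of 18.8 to 27.8 CPM to one of 44.9 to 69.1 CPM, and none of the 7 was at 0 in any library. Markers of interneurons (0 of 6 called), astrocytes and Bergmann glia (1 rose and 1 fell of 6), oligodendrocytes (1 fell of 5) and endothelial cells (0 of 4 called) were also checked in edgeR, and at an unadjusted p under 0.05 still 0 interneuron or endothelial markers passed. In such bulk samples fewer cells of a type and less RNA per cell cannot be told apart, and the part that these marker differences have in the results below was not tested.

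Isoform choice in Control is described by the reads that enter constant exon 1, each counted by the variable exon it came from. Such a read crosses 1 junction whatever the length of the exon, so the shares can be set side by side between genes. The share is the percent of reads in the group of junctions that share an end with it. The alpha constant exon 1 lies at chr18:37156155-37156213 (mm10, plus strand) and was entered from 14 annotated variable exons.

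In the alpha cluster Pcdhac2, the variable exon closest to the constant exons, was the leading isoform. Its junction was crossed by 424, 419 and 430 reads in the Control libraries, which is 49.7%, 47.2% and 49.8% of the reads of the group, or 48.9% ± 1.5 (SD, n = 3). Every other alpha isoform was below 10% in each Control library. Pcdhac1, the other C-type member, followed with 6.58% ± 2.5 and Pcdha12 with 5.74% ± 1.5. From there the means ran down to 1.35% ± 0.43 for Pcdha8, and no neighbours in this order were separated beyond the spread of the libraries. The read numbers behind these shares were small: the 12 variable alpha isoforms together had 324, 313 and 369 reads in Control, and Pcdha8 had 15, 8 and 12.

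All 12 variable alpha exons were in use at the same time in each Control library. The evenness of use can be stated as an effective number of isoforms, which is the number of equally used isoforms that would give the same Shannon entropy. It was 10.7 ± 0.39 for the 12 variable alpha isoforms, and 6.43 ± 0.24 for all 14 once the C-type members were included. A pull-down from a whole cerebellum averages over many neurons, so this number says nothing of how many isoforms 1 neuron used.

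**Figure D1:**
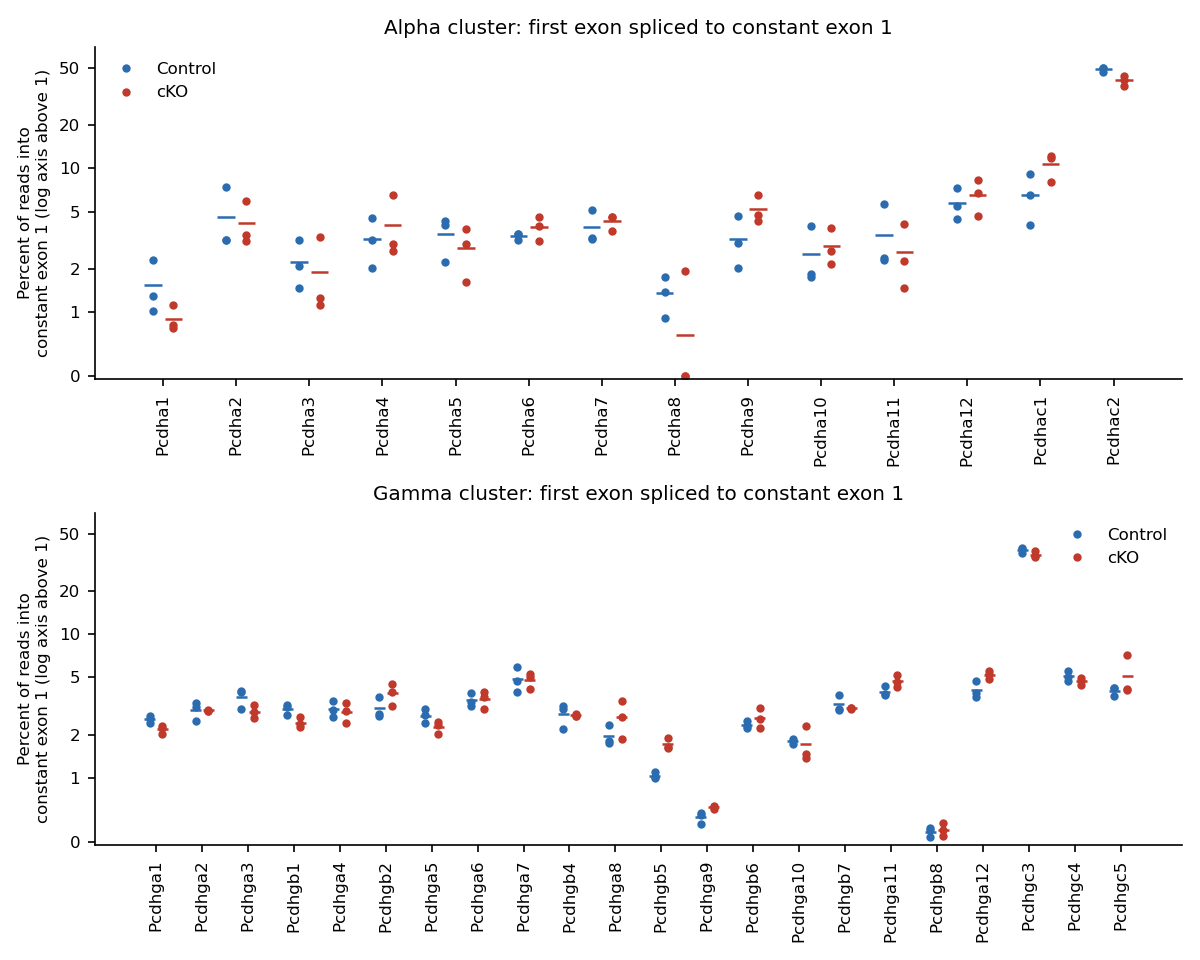
Percent of the reads into constant exon 1 that came from each variable exon, with exons in chromosome order and a log axis above 1 percent. Each point is 1 library and each short line a group mean (n = 3). Pcdhac2 stands at 48.9% and Pcdhgc3 at 38.5% in Control, and Pcdhga9 and Pcdhgb8 lie lowest in the gamma cluster.

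The gamma cluster gave many more reads, with 8821, 9580 and 9981 reads from its 22 variable exons into constant exon 1 (chr18:37825021-37825079, plus strand) in Control. Pcdhgc3 led with 3283, 3845 and 3951 reads, or 38.5% ± 1.5 of the group. Pcdhgc4 came next at 5.10% ± 0.43 and Pcdhga7 at 4.87% ± 0.99, and the third C-type member, Pcdhgc5, was at 4.04% ± 0.27. By type, the 12 gamma A isoforms took 35.9% ± 0.96, the 7 gamma B isoforms 15.8% ± 0.28 and the 3 C-type isoforms 48.2% ± 1.0 of the reads from annotated variable exons.

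Below Pcdhgc3 the gamma isoforms formed a flat series down to Pcdhga10 at 1.80% ± 0.072, in which each neighbour overlapped the next. The last 3 were separate from it and from each other. Pcdhgb5 was at 1.04% ± 0.058, Pcdhga9 at 0.382% ± 0.090 (38, 43 and 28 reads) and Pcdhgb8 at 0.158% ± 0.071 (7, 21 and 18 reads). Pcdhgb5 and Pcdhga9 lie next to each other, between Pcdhga8 at 1.96% and Pcdhgb6 at 2.34%, both in the lower part of that series. Pcdhgb8 lies between the better used Pcdhga11 at 3.99% and Pcdhga12 at 4.11%. Across genes, Spearman's rho between reads and the distance to constant exon 1 was -0.24 for the 12 variable alpha exons. It was -0.11 for the 12 gamma A exons and 0.41 for the 7 gamma B exons. Such values do not show a run of neighbouring low exons. These are descriptions over genes of the same libraries, which are not independent replicates.

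Beta genes have no constant exon to enter, so they were read from gene counts per kb of exon. Pcdhb17 and Pcdhb16, which lie next to each other, were highest in Control at 4.30 ± 0.68 and 3.90 ± 0.39 CPM per kb, and these values overlapped. Of the 21 beta genes with enough counts to be tested, Pcdhb21 was lowest at 0.559 ± 0.071 CPM per kb. Pcdhb1, at the start of the beta cluster, had 11, 0 and 2 counts in Control and 35, 1 and 9 in cKO and did not pass the filter on low counts. Beta use was even, with an effective number, taken from counts per kb, of 18.3 ± 0.52 of 22 genes in Control.

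On the same scale per kb, Pcdhgc3 was at 72.9 ± 8.0 CPM per kb in Control and Pcdhac2 at 21.8 ± 0.76. The members next in level were gamma A genes, of which Pcdhga3 was at 7.33 ± 0.63 and Pcdhga5 at 5.67 ± 0.38 CPM per kb. The highest gamma B gene, Pcdhgb2, was at 4.54 ± 0.26 CPM per kb, and Pcdhgc4 at 5.32 ± 0.61 was near these. The variable alpha genes other than Pcdha4, which had nearly no gene counts, lay lower, from 0.135 ± 0.085 for Pcdha8 to 0.972 ± 0.20 for Pcdha5 and 1.04 ± 0.15 for Pcdha12. By this measure too the members were led by 1 C-type gene of the gamma cluster and 1 of the alpha cluster. The annotated exons of some members hold further or retained stretches (Pcdha11 has 4.675 kb and Pcdhgc5 5.508 kb), which lowers their value per kb.

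Gene counts and junction reads are separate readings of the same RNA. Over the 35 alpha and gamma genes without Pcdha4, Spearman's rho between Control gene counts and Control junction reads was 0.92 across genes. That value spans the low alpha and the high gamma cluster. It was 0.83 over the 13 alpha genes and 0.74 over the 22 gamma genes, so members of 1 cluster changed places between the readings. Pcdhgb5, for example, had 2496 counts and 298 junction reads, while Pcdhga1 had 2151 counts and 734 junction reads. Pcdha4 stood farthest apart. It had 2 gene counts over the 3 Control libraries, while its variable exon was joined to constant exon 1 by 27, 18 and 39 reads. That is a share of 3.24% ± 1.2, between those of its neighbours Pcdha3 (2.24% ± 0.86) and Pcdha5 (3.52% ± 1.1). The gene table also holds the row Pcdha4-g, at 0 in all libraries. How reads that lie in more than 1 gene were counted is not given in the labels or files used here, and the gene count of Pcdha4 is no measure of its use. Reads in stretches that members share are uncertain as well: of all stretches of 90 bases in a gene's own exons, a median of 6.99% occurred in another member for the variable alpha genes, 3.96% for gamma B, 0.479% for beta and 0% for gamma A and the C-type genes.

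**Figure D2:**
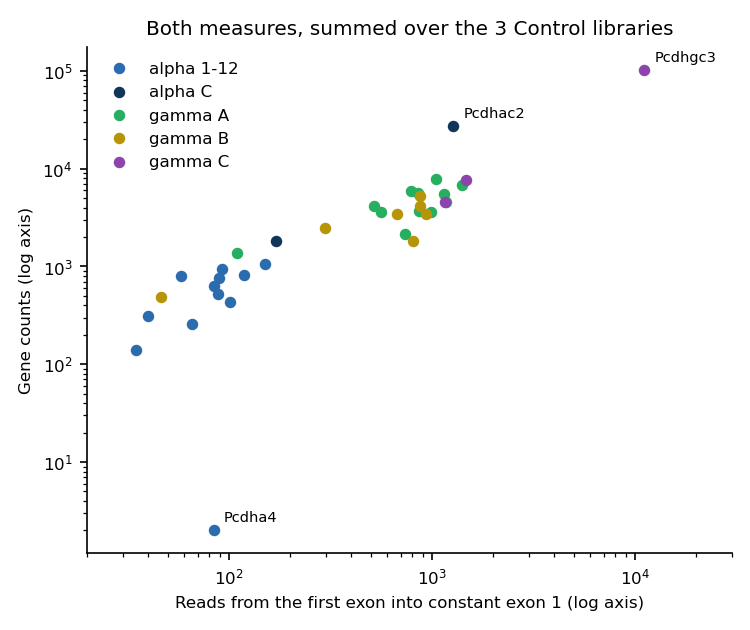
Gene counts (y axis, log) against reads from the variable exon into constant exon 1 (x axis, log), each summed over the 3 Control libraries, with 1 point for each of the 36 alpha and gamma genes. Pcdha4 lies apart at 2 counts and 84 junction reads, and Pcdhac2 has 21.4 counts for each junction read.

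The readings also differed in the weight they gave to Pcdhac2. It had 21.4 gene counts for each junction read in Control, while the other genes apart from Pcdha4 ranged from 2.28 (Pcdhgb4) to 13.8 (Pcdha3). By gene counts the C-type members made up 81.3% ± 0.11 of alpha reads in Control, but by junction reads 59.0% ± 2.8. These gene counts are not per kb and hold nearly none of Pcdha4, which had 84 junction reads. The part of this in the difference was not tested. In the gamma cluster the C-type members made up 60.0% ± 1.9 by gene counts and 48.2% ± 1.0 by junction reads. Gene counts include reads from any part of an annotated exon, also from RNA that is not spliced to the constant exons.

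The comparison of cKO with Control asks whether the level or the choice of these isoforms differed when Rbm17 was deleted in Purkinje neurons. Pcdhac2 fell, and no other member passed the test in either direction. A call is an adjusted p under 0.05 in edgeR's quasi-likelihood test, adjusted by Benjamini-Hochberg over the 16067 genes tested, of which 7.87% were called and 3.85% were called lower in cKO. Of the 59 members 56 passed the filter, and Pcdha4, Pcdha4-g and Pcdhb1 did not. 1 of the 56 fell and 0 rose. DESeq2 called 4 members lower and 0 higher, and limma-voom called 1 lower and 0 higher. Over all 16067 genes DESeq2 called 1022 lower and 1020 higher, and limma-voom 632 lower and 607 higher.

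Many more members had a small difference in the same direction. The log2 fold change of cKO over Control was below 0 in 46 of the 56 members tested, against 49.2% of all genes. The median was -0.20 for the members and 0.01 for all genes. At an unadjusted p under 0.05, 9 members were lower and 0 higher, against 10.6% of all genes lower and 11.5% higher. In 12 members the groups did not overlap and cKO was lower, against 13.4% of all genes, and in 0 members without overlap cKO was higher, against 15%. When CPM were taken on plain total counts without TMM, the median of all genes moved to 0.12, that of the members to -0.07, and 32 of 56 members were below 0.

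**Figure D3:**
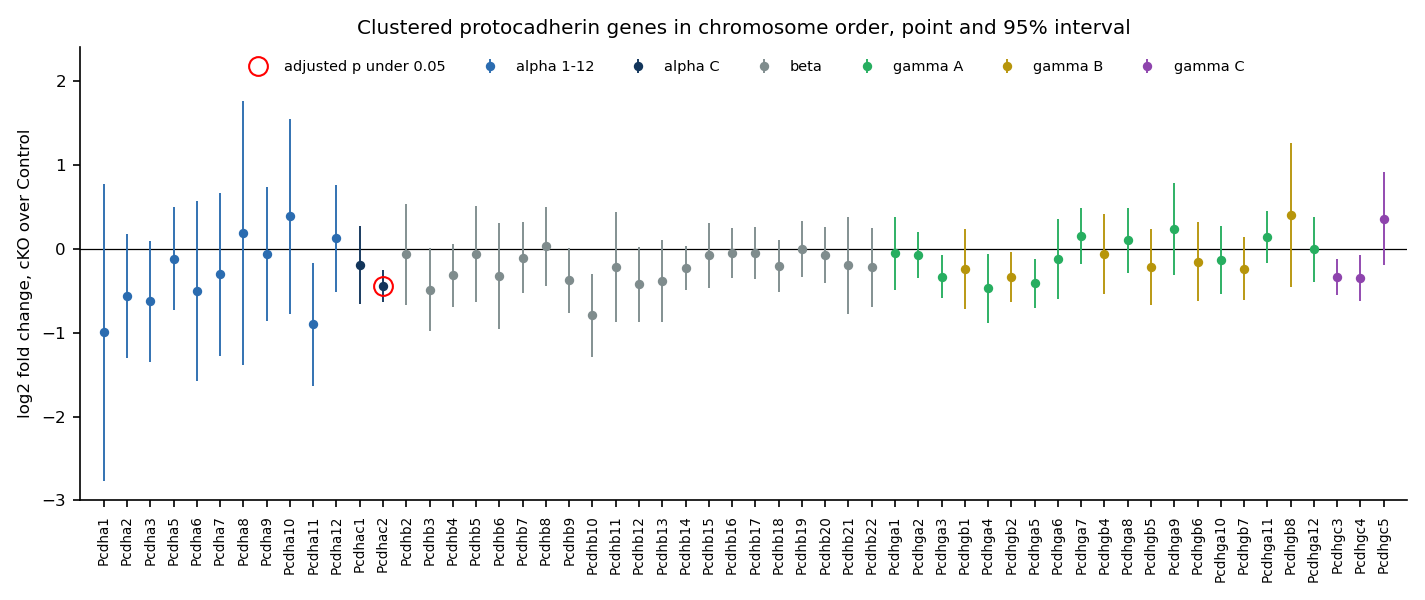
log2 fold change of cKO over Control with its 95% interval (edgeR) for the 56 members tested, in chromosome order and coloured by type, with n = 3 libraries in each group. The circle marks Pcdhac2, the member that passed the threshold, at -0.45, and 46 of the 56 points lie below 0.

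Pcdhac2, the leading alpha isoform, had 8728, 9745 and 8787 counts in Control and 7853, 7213 and 7776 in cKO. The groups did not overlap. Its level was 65.9 ± 2.3 CPM in Control and 48.4 ± 0.60 CPM in cKO, a log2 fold change of -0.45 ± 0.08 (SE), with a 95% interval of -0.63 to -0.26 and an adjusted p of 0.0105 in edgeR. Without the second Control library the adjusted p in edgeR was 0.0603 and without the third cKO library 0.0704, so the call was lost, while the log2 fold change was -0.44 in both fits.

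Pcdhgc3, the leading gamma isoform, which is known for a role in dendrite growth, had 28226, 38095 and 35918 counts in Control and 31405, 28976 and 31811 in cKO. Its level was 246 ± 27 CPM in Control and 195 ± 1.4 CPM in cKO, and on this scale even the highest cKO library was below the lowest Control. The log2 fold change was -0.34 ± 0.10 (SE), with a 95% interval of -0.55 to -0.12, and missed the threshold in edgeR with an adjusted p of 0.0628. It passed in DESeq2 (adjusted p 0.0115) and in edgeR without the first Control library (0.0112), whose Pcdhgc3 level was the lowest of the 3 Controls.

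The other C-type members did not pass. Pcdhgc4, an isoform known for neuron survival, was at 18.5 ± 2.1 CPM in Control and 14.5 ± 0.48 in cKO without overlap, with a log2 fold change of -0.35 and an adjusted p of 0.118 in edgeR. Pcdhac1 was at 4.41 ± 0.71 and 3.86 ± 0.44 CPM with overlap. Pcdhgc5 was the only C-type member with a log2 fold change above 0 (0.36, adjusted p 0.461 in edgeR). Its counts were 1463, 1708 and 1354 in Control and 3317, 1329 and 2043 in cKO, so the first cKO library was far above the others and the remaining cKO libraries spanned the Controls. Without that library the log2 fold change was -0.02.

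**Figure D4:**
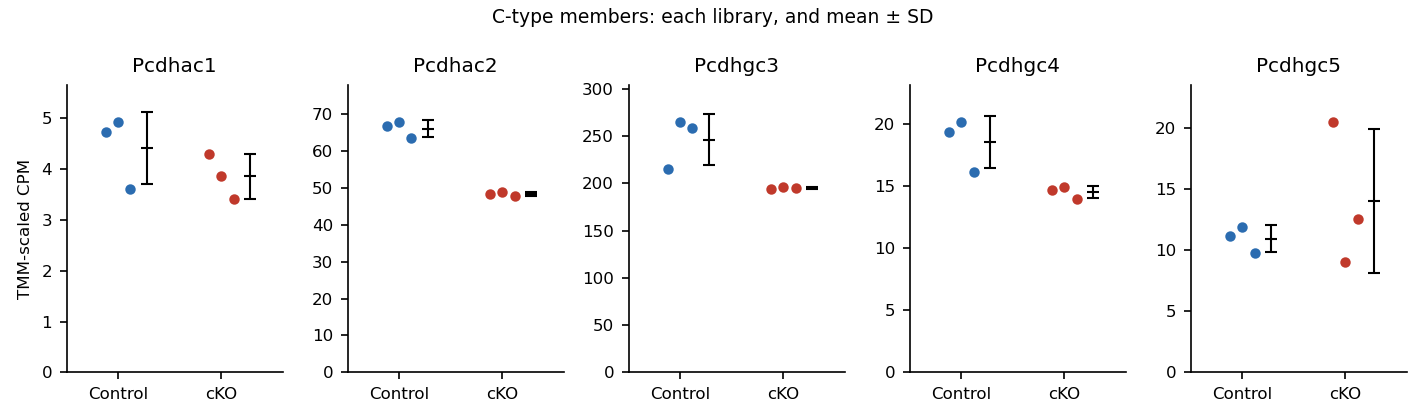
TMM-scaled CPM of the 5 C-type members in each library (points), with the mean and SD of each group beside them (n = 3). The cKO points of Pcdhac2, Pcdhgc3 and Pcdhgc4 lie below all their Control points, those of Pcdhac1 overlap them, and 1 cKO library is high for Pcdhgc5.

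Among the variable alpha genes 8 of 11 had a log2 fold change below 0, with a median of -0.31, and 0 were called. Their counts were low and their intervals wide. Pcdha1 had the lowest value of all members, -0.995, with a 95% interval of -2.76 to 0.77, from 85, 39 and 185 counts in Control and 106, 12 and 64 in cKO. Pcdha11 was more even, with 220, 309 and 234 counts in Control and 131, 169 and 162 in cKO. Its groups did not overlap and its log2 fold change was -0.90 ± 0.33 (SE), with an adjusted p of 0.137 in edgeR. Pcdha10 was among the members with the highest values, 0.39, with 108, 105 and 47 counts in Control and 80, 142 and 166 in cKO. Pcdha12, Pcdha5 and Pcdha8, which marked the upper and lower ends of the alpha levels per kb, had values of 0.12, -0.12 and 0.19, and all 3 overlapped between groups.

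The beta genes had values close to each other: 20 of 21 were below 0, with a median of -0.21 and a range of -0.79 to 0.03, and 0 were called. Pcdhb10 was at the lower end, with 619, 900 and 888 counts in Control and 597, 378 and 616 in cKO. Its level was 5.80 ± 0.93 CPM in Control and 3.34 ± 0.68 in cKO without overlap, and its log2 fold change of -0.79 ± 0.22 (SE) had an adjusted p of 0.0574 in edgeR. It passed in DESeq2 (adjusted p 0.00954) and in edgeR without the first Control library (0.0435). The most used beta genes had values near 0, -0.05 for Pcdhb17 and -0.06 for Pcdhb16, and Pcdhb21 was at -0.20. These 3 overlapped between groups.

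Among the gamma A genes 8 of 12 were below 0, with a median of -0.07, and among the gamma B genes 6 of 7, with a median of -0.22. None of them was called in edgeR. Pcdhga5 had 1753, 2199 and 2029 counts in Control and 1552, 1708 and 1854 in cKO. Its level was 14.4 ± 0.97 and 10.8 ± 1.1 CPM without overlap, with a log2 fold change of -0.41 and adjusted p values of 0.0883 in edgeR and 0.0340 in DESeq2. Pcdhga3, the highest gamma A gene per kb, was at 19.1 ± 1.6 and 15.1 ± 0.64 CPM without overlap (-0.33, adjusted p 0.115 in edgeR). Pcdhgb2 was at 12.6 ± 0.72 and 9.92 ± 0.93 CPM without overlap (-0.34, adjusted p 0.158 in edgeR), while its junction into constant exon 1 was at 4.01 and 4.18 RPM (reads scaled to all junction reads of the library, with TMM) with overlap, a log2 fold change of 0.06. Pcdhgb1 at -0.25 overlapped. The little-used Pcdhgb8 and Pcdhga9 were above 0, at 0.40 and 0.23, and both overlapped between groups.

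The isoform choice itself was compared by the shares of reads into constant exon 1. 0 of the 36 variable exon junctions were called, against 0.908% of the 112047 junction shares tested with edgeR's diffSpliceDGE, where a call also needed a change of at least 5 percentage points. 31 of the 36 had a Control share under 5%, so for them a call by a fall was out of reach. With no minimum change there were 0 calls as well, against 2.77% of all junction shares, and the lowest adjusted p of the 36 was 0.294 in edgeR. At an unadjusted p under 0.05 there was 1, Pcdhgb5. Its share was 1.01%, 0.997% and 1.10% in Control and 1.90%, 1.63% and 1.61% in cKO, without overlap, with an adjusted p of 0.294 in edgeR. The read numbers were 90, 97 and 111 in Control and 158, 139 and 152 in cKO. By gene counts Pcdhgb5 went the other way, at 6.03 and 5.17 CPM with overlap (log2 fold change -0.22).

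None of the C-type shares passed, and the largest difference was that of Pcdhac2, at -7.97 percentage points. Pcdhac2 had 49.7%, 47.2% and 49.8% in Control and 44.2%, 37.4% and 41.3% in cKO, so all cKO libraries were lower, with an adjusted p of 0.974 in edgeR. Pcdhac1 was at 6.58% ± 2.5 in Control and 10.7% ± 2.3 in cKO with overlap. Pcdhgc3 was at 38.5% ± 1.5 and 35.7% ± 1.7 with overlap. Pcdhgc5 was at 4.04% ± 0.27 and 5.13% ± 1.8, and the first cKO library, at 7.18%, again stood above the other 2 cKO libraries at 4.13% and 4.09%.

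The evenness of isoform use overlapped between groups in every cluster. For the variable alpha isoforms the effective number was 10.7 ± 0.39 in Control and 9.90 ± 0.40 in cKO, for the gamma A isoforms 10.9 ± 0.21 and 10.8 ± 0.11, and for the gamma B isoforms 5.89 ± 0.094 and 6.05 ± 0.19. Over all 22 gamma isoforms it was 11.6 ± 0.39 and 12.4 ± 0.57. Pcdha8 was the only variable exon without a read in some libraries: its reads were 15, 8 and 12 in Control and 0, 0 and 18 in cKO, and at these numbers no difference was detectable.

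The levels of the same junctions, in RPM, were tested beside the shares. 24 of the 36 variable exon junctions had a log2 fold change below 0, against 46.5% of the 225489 junctions tested, and their median was -0.31 against 0.04. 8 were lower at an unadjusted p under 0.05, against 6.01% of all junctions, and 0 were higher, against 8.57%. After adjustment edgeR called 0 of 36, against 2.78% of all junctions in either direction. DESeq2 called 2 lower, Pcdhgc3 (-0.41, adjusted p 0.00811) and Pcdhga3 (-0.63, adjusted p 0.0195). In edgeR the same junctions had adjusted p values of 0.0888 and 0.0710. No share of all junctions called by DESeq2 is given here to set beside its 2 calls. The log2 fold change of Pcdhgc3 was thus -0.34 by gene counts and -0.41 by junction reads, that of Pcdhac2 -0.45 and -0.43, and that of Pcdhga3 -0.33 and -0.64.

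Of the 35 alpha and gamma genes with both readings, 20 had log2 fold changes below 0 in both, 5 were above 0 in both and 10 had opposite signs. 6 of these 10 were below 0 by gene counts only: Pcdhac1 (-0.19 by gene counts and 0.52 by junction reads), Pcdhgb5 (-0.22 and 0.41), Pcdhgb2 (-0.34 and 0.06), Pcdha6, Pcdha9 and Pcdhga12. The other 4, Pcdhga7 (0.15 and -0.33), Pcdha8, Pcdhga11 and Pcdhgb8, were below 0 by junction reads only. None of the 10 passed in edgeR in either reading, and the groups were apart in 1 reading each for Pcdhgb2, by gene counts, and Pcdhgb5, by junction reads.

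The junctions between constant exons carry the output of a whole cluster, whatever the variable exon. From gamma constant exon 1 to 2 there were 10641, 11582 and 11562 reads in Control and 9603, 10381 and 11322 in cKO. On the scale of library size the groups did not overlap, at 155 ± 6.0 and 128 ± 13 RPM, with a log2 fold change of -0.28 ± 0.10 (SE) and an adjusted p of 0.185 in edgeR. From gamma constant exon 2 to 3 the log2 fold change was -0.27, with an adjusted p of 0.253 in edgeR. In the alpha cluster it was -0.18 (13.3 ± 0.15 and 11.7 ± 0.27 RPM, adjusted p 0.550 in edgeR) from constant exon 1 to 2. From constant exon 2 to 3 it was -0.35 (11.8 ± 0.75 and 9.27 ± 0.72 RPM, adjusted p 0.231 in edgeR). All 4 lay below 0, against 46.5% of all junctions tested, and without overlap between groups. No share of all junctions without overlap is given here to set beside that. 0 of the 4 passed in edgeR or in DESeq2. 3 of them had an unadjusted p under 0.05 in edgeR (0.0200, 0.0129 and 0.0242), against 6.01% of all junctions lower at that level. The junctions behind that share were not matched to these 4 in depth. The 2 junctions of a cluster lie on the same RNA, so they are not independent readings.

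An intron of 428 bases inside the last alpha constant exon, whose removal gives a shorter end of the protein, was also compared: 10.96 ± 2.3 reads crossed it for every 100 reads from constant exon 2 to 3 in Control and 10.5 ± 1.5 in cKO, with overlap.

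Summed over members, the level was 715.5 ± 36 CPM in Control and 606.6 ± 19 CPM in cKO, and on this TMM scale the groups did not overlap. On plain total counts they overlapped: members took 0.0626%, 0.0706% and 0.0731% in Control and 0.0647%, 0.0637% and 0.0612% in cKO. The sums by type in CPM below are on the TMM scale as well. The alpha C-type pair went from 70.3 ± 3.0 to 52.2 ± 0.93 CPM and the gamma C-type genes from 275.9 ± 27 to 223.6 ± 4.5 CPM, both without overlap. The variable alpha genes summed to 16.2 ± 0.67 and 13.3 ± 0.52 CPM and the beta genes to 169.5 ± 11 and 149.2 ± 9.9 CPM, again without overlap. Gamma A at 132.7 ± 3.4 and 124.4 ± 9.0 CPM and gamma B at 50.9 ± 3.9 and 43.9 ± 7.0 CPM overlapped. The log2 ratio of the gamma A sum was -0.09 with TMM and turned to 0.02 on plain total counts. These sums were not tested. Beside them stand the Purkinje markers, whose median log2 fold change was -0.62, and the microglial markers, with a median of 1.34.

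Pcdhac2 showed a further donor site in its variable exon. The variable exon lies at chr18:37143503-37146530 (plus strand), and besides its annotated donor at the end of the exon, reads joined constant exon 1 from a site 1112 bases further upstream that is not in the annotation used. The annotated donor gave 424, 419 and 430 reads in Control and 388, 299 and 385 in cKO. The upstream donor gave 14, 15 and 11 reads in Control and 28, 40 and 51 in cKO. The upstream site thus gave 3.20%, 3.46% and 2.49% of the reads of both donors in Control and 6.73%, 11.8% and 11.7% in cKO, or 3.05% ± 0.50 and 10.1% ± 2.9. Every cKO library lay above every Control library. Neither test passed: the adjusted p in edgeR was 0.286 for the share in the alpha group and 0.258 for the level (log2 fold change 1.39).

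**Figure D5:**
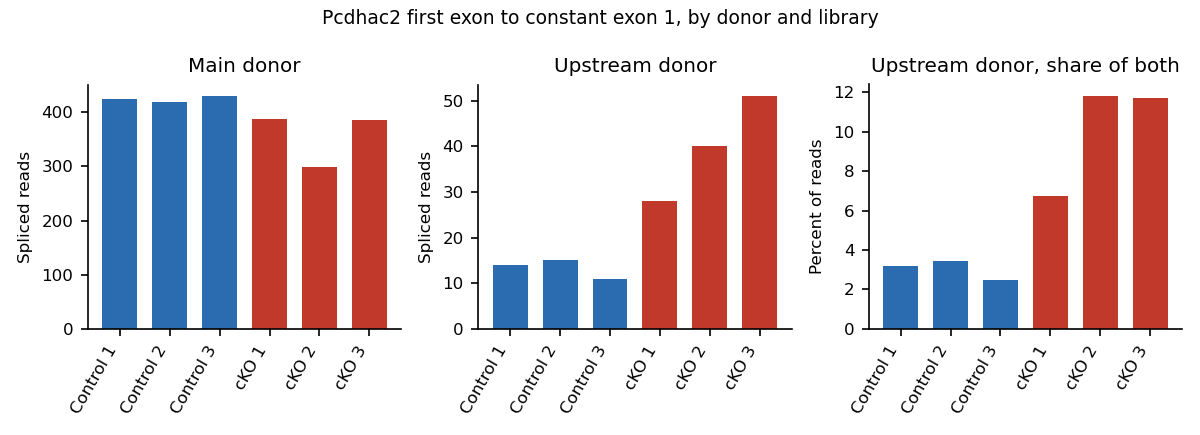
Reads from the annotated donor of the Pcdhac2 variable exon, reads from the donor 1112 bases upstream, and the upstream reads as a percent of both, with 1 bar for each library. The upstream share was at most 3.46% in Control and at least 6.73% in cKO.

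Pcdhgc5 also had an upstream donor, which the annotation holds, 200 bases after the start of its variable exon. It gave 88, 38 and 7 reads in Control and 102, 38 and 104 in cKO, so the groups overlapped and the Control libraries differed widely among themselves. Over each whole cluster, donors other than the main one of each variable exon, these upstream sites included, gave a small part of the reads into constant exon 1, 5.82% ± 4.4 of alpha reads in Control and 8.46% ± 1.0 in cKO, and 1.17% ± 0.33 of gamma reads and 1.51% ± 0.57, all with overlap. In alpha the Control libraries were at 3.17%, 10.9% and 3.36%. Some of these alpha donors had the same read numbers in every library. Those of Pcdha1 and Pcdha9 both had 0, 6 and 3 reads in Control and 4, 3 and 2 in cKO. Whether the same reads were placed at more than 1 member was not tested, and the alpha percent may count such reads repeatedly.

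Genes around and behind this system were taken from lists. Over all genes tested edgeR called 7.87% in either direction, the share to set beside each list count below. Of the 12 protocadherins outside the clusters, Pcdh20 fell from 19.3 ± 1.0 to 9.72 ± 1.2 CPM (log2 fold change -0.99, adjusted p 0.00178 in edgeR), and the other 11 did not pass. Of 11 atypical cadherins and calsyntenins tested, Clstn3 (-0.52) and Clstn2 (-0.56), both synaptic calsyntenins, fell, and Fat4, a giant cadherin of planar polarity, rose (0.84). Dchs2 was not tested.

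Promoter choice in the clusters is known to depend on CTCF, cohesin and silencing factors. Of 22 such regulators tested 1 fell and 1 rose, against 7.87% of all genes called in either direction in edgeR. Wapl was not tested. Wiz, a zinc finger partner of the G9a and GLP histone methyltransferases, went from 346, 331 and 292 CPM in Control to 147, 188 and 199 CPM in cKO (log2 fold change -0.86, adjusted p 0.00263 in edgeR). Ehmt2, the gene of G9a itself, went from 35.8 ± 2.6 to 49.1 ± 4.0 CPM (0.46, adjusted p 0.0239 in edgeR). The other 20, among them Ctcf and the cohesin genes, did not pass, and the median of the list was -0.01.

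Of 16 signalling and processing partners 1 rose, Ptk2b, the kinase Pyk2, which gamma protocadherins are known to inhibit. It was at 2.99, 2.41 and 2.16 CPM in Control and 13.6, 4.56 and 7.93 CPM in cKO (log2 fold change 1.79, adjusted p 0.0121 in edgeR). It was highest in the cKO library in which the summed microglial markers were also highest (69.1 CPM). Whether these are linked was not tested. Of 17 neighbours outside the clusters on the same chromosome 0 were called in edgeR, in DESeq2 or in limma-voom. At an unadjusted p under 0.05 in edgeR 2 were lower and 0 higher, against 10.6% and 11.5% of all genes. The median of the neighbours was 0.02. The neighbours Ik and Hars were at 156 ± 17 and 165 ± 35 CPM and at 78.4 ± 1.4 and 82.7 ± 3.0 CPM. The alpha, beta and gamma genes thus had a median below that of the genes beside them, a description that was not tested.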

How the data were processed

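A table of raw gene counts over 6 libraries was deposited by the authors and, for each library, a list of splice junctions whose score is the count of reads across the junction, per the file headers. TopHat2 2.1.0, HTSeq 0.6.0 and the build mm10 are named in the submitters' processing notes. No source used here names the gene annotation, the strand setting or the treatment of multi-mapping reads. Per the labels' protocols, cDNA was amplified before sequencing, so reads are not independent molecules.

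Gene counts were tested with edgeR 4.0.16 (R 4.3.3): after filterByExpr and TMM scaling, the 2 genotypes were compared by the quasi-likelihood test, and p-values were adjusted by Benjamini-Hochberg over all genes tested. Junctions with at least 10 reads over 6 libraries and reads in at least 2 were tested in level by the same model (225489 junctions), and in share with diffSpliceDGE within groups of junctions that share a donor or an acceptor. Positions are first and last bases, counted from 1. Members were matched to GENCODE and RefSeq annotations of the same build. The length used per kb is that of exon bases not shared with another member. Effective numbers are the exponential of the Shannon entropy. Scripts were tested on simulated data.

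The members and gene lists were chosen with earlier results of these data known. Genes named are those called, the C-type members, the 2 highest and the lowest per kb in Control and the 3 largest rises and falls. Other members named to describe an order, Pcdhgb5 and those whose readings had opposite signs were chosen after their values were seen. Alternatives were other scalings, count filters, DESeq2 1.42.0, limma-voom 3.58.1, the replicate number as a block and each library left out.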

Additional observations from a re-analysis of the deposited data

How the results depend on the processing

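With 3 libraries in each group, calls depended on the fit more than values did. Members called numbered 1 with TMM and 4 with DESeq2, 3 with the replicate block and 0 to 3 when 1 library was left out: 3 without the first Control library, 0 without the second Control or the third cKO library. Libraries with the same number share only that number: their deviations from the group means correlated at 0.045, -0.062 and 0.021, and 2 of 6 libraries correlated best with the library of the same number in the other group. The members added were Pcdhgc3, Pcdhb10 and, in DESeq2, Pcdhga5, all lower in cKO. All genes called numbered 1265, 2042 with DESeq2, 1734 with the replicate block and 530 to 1037 with 1 library left out. The fold change of Pcdhac2 stayed between -0.50 and -0.43 in all alternative fits of the gene counts, and its call was lost only without those 2 libraries. None of these fits used plain total counts, on which the log2 ratio of the alpha C sum, given below, was smaller in size. Among 273 alternative values of named genes, 10 changed sign, each with 1 library left out: those of Pcdha5, Pcdha8, Pcdha12, Pcdhb16, Pcdhb17 and Pcdhgc5, which passed in neither fit. Among 153 of named junction shares, 5 did. Calls of junction shares among members stayed at 0 and those of constant exon junctions at 0 of 4 in every alternative run, the replicate block included. A further alternative added after seeing the data, a share call with no minimum change, also gave 0.

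Summed levels depended on the scaling and the kind of read. On plain total counts the log2 ratio of cKO to Control was -0.17 for variable alpha genes (-0.29 with TMM), -0.31 for alpha C (-0.43), -0.068 for beta (-0.18), 0.022 for gamma A (-0.09) and -0.19 for gamma C (-0.30). By junction reads it was -0.13 for variable alpha, -0.28 for alpha C and -0.27 for gamma A. The C-type part by junction reads was 59.0% in Control and 56.4% in cKO for alpha, against 81.3% and 79.7% by gene counts, and 48.2% and 46.2% for gamma, against 60.0% and 57.1%. The causes were not tested. Alternatives added after seeing the data left out each library for the upstream donor of Pcdhac2: the difference was 6.17 to 8.70 percentage points. The depth of alpha junctions, often under 50 reads per isoform and library, limits what a share can show.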

Other observations

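Some junctions inside the clusters lay outside isoform choice. On the minus strand, opposite to the genes, a junction ending inside the Pcdhac2 variable exon (chr18:37136247-37144751) had 21, 18 and 29 reads in Control and 20, 25 and 15 in cKO. A short one within the same exon (chr18:37144903-37144982, minus strand) had 3, 22 and 26 reads in Control and 0, 0 and 0 in cKO, with an adjusted p of 0.0548 in edgeR. The strand setting of the gene counts is not given, and the part of opposite-strand reads in the Pcdhac2 gene counts was not tested.

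Near the gamma constant exons, an acceptor a few bases before the start of constant exon 2 had 19, 15 and 25 reads in Control and 36, 8 and 34 in cKO. A donor between the Pcdhgc5 variable exon and constant exon 1 had 11, 33 and 17 reads in Control and 13, 18 and 33 in cKO. In 2 further cases nearly all reads came from 1 library. A junction ending 3 bases inside constant exon 3 had 136 reads in the third Control library, 4 in the second cKO library and 0 in the others. A junction within gamma constant exon 3 (chr18:37841071-37841450, 380 bases) had 415 reads in the second Control library and 0 in the others, so it was not tested.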
